A study of Mus musculus with 30 samples.

Results

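The chemokine system was examined as 59 genes, namely every protein-coding gene in both count files whose symbol followed the naming of chemokines (Ccl, Cxcl, Cx3cl, Xcl) or of their receptors (Ccr, Cxcr, Cx3cr, Xcr, Ackr). The rule used names and annotation, not measured values, out of 41128 genes, 22026 of them protein-coding. There were 37 ligand genes and 22 receptor genes. Counts were given for no gene on chromosome 9 or X in these files, so the 13 members on chromosome 9, among them Ccr2, Cx3cr1, Cxcr5 and Cxcr6, and Cxcr3 on X were not analysed here. This left 45 members, all 37 ligands but only 8 receptors (Cxcr1, Cxcr2, Cxcr4, Ccr6, Ccr7, Ccr10, Ackr1 and Ackr3).

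RNA from 14 aortae and 16 kidneys of mice was sequenced. All mice were male, with the strain labelled as C57Bl6J, and carried a tamoxifen-inducible Cre (SMMHC-CreERT2) driven by the smooth muscle myosin heavy chain promoter from a transgene on the Y chromosome. The study's methods name C57BL/6 for the parents with floxed Egfr and C57BL/6N for the parents with the Cre. In KO mice both Egfr alleles were flanked by loxP sites, whereas WT mice carried the Cre without loxP sites, and mice of both genotypes received tamoxifen at 1 mg a day for 5 days. From 7 days later, at 6 weeks of age, they were fed standard-fat diet (SFD) or high-fat diet (HFD) for 18 weeks. There were 3 WT-SFD, 4 WT-HFD, 3 KO-SFD and 4 KO-HFD aortae, described in the labels as freed of adjacent fat, and 4 kidneys in each of the 4 groups. Since the Cre is driven by a smooth muscle promoter, the design leaves Egfr in place in the other cell types of these organs, which was not tested here. The tissues were sequenced at different facilities, so they were fitted apart and levels are only given side by side.

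Between 6403699 and 13052870 reads per aorta and between 16354880 and 28331314 per kidney were assigned to genes. Levels are given as CPM, the usual scaling of counts to depth, on library sizes corrected by TMM factors, and within a group in ascending order of mouse number. Egfr itself was at 39.5 to 65.1 CPM in the 7 WT aortae and at 26.8 to 40.6 CPM in the 7 KO aortae, with KO-HFD-1503 and KO-HFD-1504 above the lowest WT aorta. Averaged over diets it was 0.67 lower on the log2 scale in KO aortae (log2 change -0.67, SE 0.109, adjusted p = 0.0132, edgeR quasi-likelihood test). In kidney, where few cells are smooth muscle, Egfr was at 36.9 to 58.4 CPM in WT and 40.5 to 60.8 CPM in KO (log2 change 0.00, SE 0.093). The labels of the tissues fitted their markers. The smooth muscle gene Acta2 was at 4235 to 8745 CPM in aortae and 19.2 to 36.8 CPM in kidneys, and the tubule gene Umod had no count in any aorta and stood at 2543 to 5688 CPM in kidneys.

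Some libraries stood apart in cells other than smooth muscle. The summed CPM of 20 adipocyte markers was 17768, 12547 and 787 in WT-SFD aortae, 677, 657, 1065 and 1015 in WT-HFD, 9916, 3261 and 813 in KO-SFD, and 738, 961, 842 and 630 in KO-HFD, with Fasn as the most abundant marker. High sums were thus found in 4 of 6 SFD aortae and in no HFD aorta. The sum of 8 leucocyte markers was highest in aortae KO-SFD-1319 (209 CPM) and KO-HFD-1503 (178 CPM) against 60.3 to 137 CPM in the other 12, and in kidney KO-HFD-1504 (262 CPM) against 85 to 164 CPM in the other 15. In whole organs, fewer cells of a type and less RNA per cell cannot be told apart.

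Chemokines are small secreted proteins that bind to glycosaminoglycans and guide leucocytes through G protein-coupled receptors. Inflammatory chemokines such as CCL2 are induced in injured tissue and draw in monocytes, T cells or neutrophils, whereas homeostatic chemokines such as CXCL12, CCL19 and CCL21 are made constantly and place cells within tissues and lymph nodes. Atypical receptors (Ackr genes) bind chemokines without G protein signalling and remove them or carry them across cells, and in vessel walls and kidney the system is known for monocyte entry in atherosclerosis and nephritis.

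Ccl21a and Ccl21b in aorta and Ccl21b in kidney had the highest mean levels per kb of exon among the members, and their reads come from a family of near-identical copies. In the GENCODE transcripts all 402 bases of Ccl21b matched Ccl21a from its base 76 on, with 2 differences, T84A and C194T, written with the base of Ccl21a first and counted from the first base of Ccl21b (99.5% identity). A stretch around the second difference is shown because it is typical of what a sequencing read had to separate. The differing base is in capitals, and positions are counted along each transcript.
Ccl21a bases 239 to 298: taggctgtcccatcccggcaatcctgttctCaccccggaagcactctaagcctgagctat
Ccl21b bases 164 to 223: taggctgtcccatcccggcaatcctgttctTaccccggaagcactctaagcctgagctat
Of the 100-base words of Ccl21b, 100% occurred in another gene on the same strand, and 50.3% of those of Ccl21a did. Predicted copies held most of the family's reads, 4570 of 7406 in aorta and 14371 of 19291 in kidney, and Ccl21a held 26.3% and 10.1%. Levels of single Ccl21 genes, and of Ccl27b (97.9% shared), Ccl19 (39.3%) and Ccl27a (26.5%), are therefore uncertain.

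Promoters are shown for Ccl28, the member with the smallest adjusted p, for Ccl9, which also rose in kidney, and for the neighbouring genes Cxcl9 and Cxcl10, whose highest values on HFD in aorta were in the same mouse. Each spans 250 bases before to 50 bases after the RefSeq start (GRCm38.p6), and a match to the interferon-response motif GAAANNGAAA is in capitals.
Ccl28 promoter, chr13:119623569-119623868, + strand: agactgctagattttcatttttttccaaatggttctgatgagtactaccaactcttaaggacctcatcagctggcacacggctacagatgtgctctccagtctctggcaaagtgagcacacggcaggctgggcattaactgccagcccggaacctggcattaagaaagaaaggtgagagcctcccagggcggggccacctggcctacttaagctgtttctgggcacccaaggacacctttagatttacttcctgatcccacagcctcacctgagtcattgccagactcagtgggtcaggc
Ccl9 promoter, chr11:83578587-83578886, - strand: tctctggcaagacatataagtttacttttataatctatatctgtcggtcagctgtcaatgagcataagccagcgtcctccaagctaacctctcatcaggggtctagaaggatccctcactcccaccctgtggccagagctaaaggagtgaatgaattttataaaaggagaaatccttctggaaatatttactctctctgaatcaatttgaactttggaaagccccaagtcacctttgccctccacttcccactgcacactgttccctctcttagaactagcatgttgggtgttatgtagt
Cxcl9 promoter, chr5:92328030-92328329, - strand: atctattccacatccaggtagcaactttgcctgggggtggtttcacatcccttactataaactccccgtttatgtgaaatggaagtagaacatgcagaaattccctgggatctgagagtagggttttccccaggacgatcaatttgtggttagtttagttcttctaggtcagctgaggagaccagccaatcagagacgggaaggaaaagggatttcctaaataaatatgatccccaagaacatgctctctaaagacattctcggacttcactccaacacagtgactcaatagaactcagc
Cxcl10 promoter, chr5:92348840-92349139, - strand: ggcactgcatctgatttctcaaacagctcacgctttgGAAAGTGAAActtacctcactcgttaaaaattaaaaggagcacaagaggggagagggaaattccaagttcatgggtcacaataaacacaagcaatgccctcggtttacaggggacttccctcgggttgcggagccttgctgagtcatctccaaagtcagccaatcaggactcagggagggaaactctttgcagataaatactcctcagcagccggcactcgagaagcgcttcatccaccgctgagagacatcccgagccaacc
Of 32851 promoters of this length, 3.44% held GAAANNGAAA on either strand, and among members with counts Ccl19, Cxcl10 and Cxcl14 did. The NF-κB motif GGGANTTTCC was held by 0.411% of all promoters and by those of Cxcl1, Cxcl2 and Cxcl3. These are matches of letters only, in a table that had entries for 45 of the 59 members and held none for Cxcl16, Ccl2, Ccl5, Ccl7, Ccl11, Ccl24, Ccr7 or Ccr10.

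Of the members' roles, homeostatic ligands had the highest summed level in both tissues. In CPM per kb of exon, the 10 homeostatic ligands held 61.2% of the members' summed level in aorta and 59.6% in kidney, whereas the 16 inflammatory CC ligands held 17.6% and 6.15%, and the 5 neutrophil-attracting ligands 0.573% and 0.297%. The chemokine genes Ppbp and Pf4 bear other names, so the rule left them out of these shares. In aorta their group means were 5.52 to 18.4 CPM and 6.33 to 10.8 CPM, against a mean of 1 CPM for Cxcl1, the highest of the 5 neutrophil-attracting ligands. In kidney their group means were 0.442 to 0.685 CPM and 1.02 to 1.19 CPM. Without Ccl21a and Ccl21b, whose levels are uncertain, the homeostatic share was 44.5% in aorta and 50.2% in kidney, a repeat added after the values were seen. In aorta the 6 highest mean levels per kb were those of Ccl21a (18.3), Ccl21b (18), Cxcl12 (14.2), the CXCL12 scavenger receptor Ackr3 (12.4), Ccl19 (10) and Ccl27a (7.99). In kidney they were Ccl21b (23.3), Cxcl14 (22.3), the membrane-anchored fractalkine gene Cx3cl1 (20.3), Cxcl12 (19.2), Ackr3 (14.6) and Cxcl16 (14.2). Neighbours in these orders overlapped in their values across mice. At least 1 count was found for 42 members in aorta and 44 in kidney, and a count in every library for 19 and 29. Enough counts for testing were present for 26 of 14796 genes tested in aorta and 28 of 15034 in kidney, and their median level per kb, 1.57 and 1.7, lay below that of all genes tested, 3.4 and 4.29. Cxcr1, Ccl20 and Ccl26 had no count in any aorta, and Ccl26 none in any kidney.

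**Figure D1:**
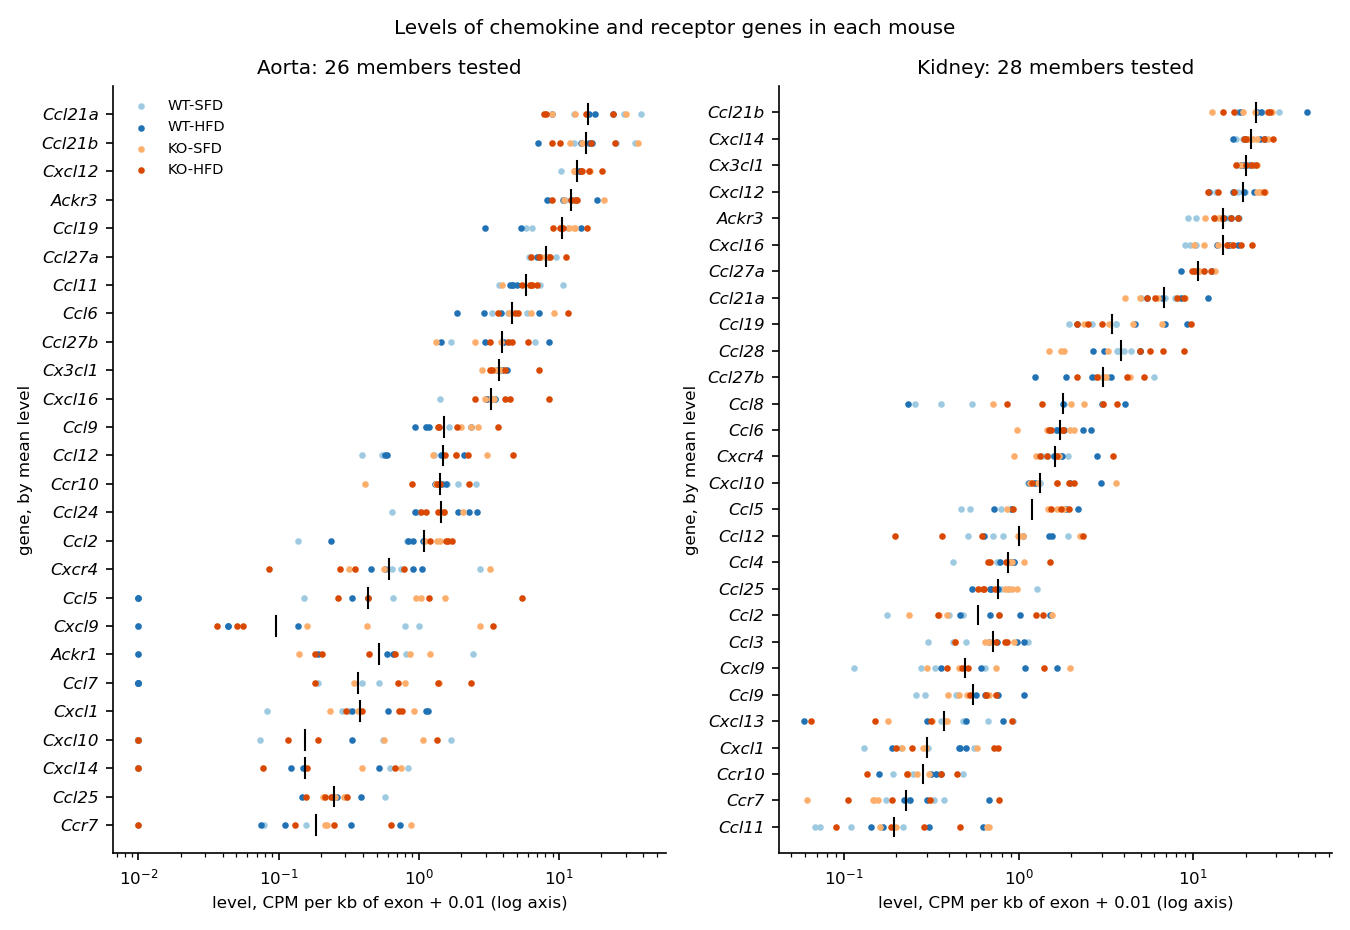
Level of each member tested in each mouse, in CPM per kb of exon plus 0.01 on a log axis, for aorta (left, 26 members) and kidney (right, 28 members). Points are mice coloured by group, bars mark the median, and members are ordered by mean level, from Ccl21a (18.3 CPM per kb) in aorta and Ccl21b (23.3 CPM per kb) in kidney downwards.

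The question addressed by diet in kidney was which members responded to HFD in each genotype. Averaged over genotypes, 3 members rose and 1 fell: Cxcl16, Ccl28 and Ccl9 rose and Ccl25 fell, so 4 of 28 members passed an adjusted p of 0.05, beside 4.62% of all genes tested. None of the 4 passed the study's stricter limit of 0.001. At an unadjusted p under 0.05 there were 6 members higher and 1 lower, beside 18.2% of all genes. Of the 28, 21 were higher and 7 lower on HFD, with a median log2 change of 0.23 against -0.01 for all genes. DESeq2 called the same 4 of 34 members with an adjusted p, beside 6.42% of all genes.

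Cxcl16 encodes a membrane-anchored chemokine that is also a scavenger receptor for oxidised lipoprotein and binds CXCR6 on T cells. Its gene lies at chr11:70453983-70459984 (mm10). In WT-SFD kidneys it was at 28.8, 27.3, 31.3 and 30.9 CPM and in WT-HFD kidneys at 48.8, 54.5, 41 and 47.9 CPM. In KO-SFD kidneys it was at 34.9, 50, 30.6 and 42 CPM and in KO-HFD kidneys at 47.6, 50.7, 65.3 and 56.8 CPM. The WT groups did not overlap, while KO-SFD-1318 reached into the range of KO-HFD. Cxcl16 rose in WT (log2 change 0.70, SE 0.14, adjusted p = 0.0185) and averaged over genotypes (0.59, SE 0.099, adjusted p = 0.0015), and did not pass in KO (0.48, SE 0.139, adjusted p = 0.0844). The call in WT was lost when WT-SFD-1309, WT-SFD-1446, WT-HFD-1535, WT-HFD-1613 or WT-HFD-1642 was left out, with the adjusted p reaching 0.0602. The difference between the genotypes' responses did not pass either (-0.22, SE 0.197, adjusted p = 1). Zmynd15, on the opposite strand at chr11:70459433-70466202, overlaps the 5′ end of Cxcl16 and shares 14.2% of its 100-base words. It was at 11.7 to 16.5 CPM in the 8 SFD kidneys and at 21.6 to 29.9 CPM in the 8 HFD kidneys, and rose averaged over genotypes (0.86, SE 0.089, adjusted p = 1.52e-05). How the counting treated strand is not given in the sources used here, so reads over the overlap cannot be told apart.

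Ccl28 encodes an epithelial chemokine that draws IgA plasma cells and T cells through CCR10 and CCR3. Its gene lies at chr13:119623819-119654359, and its promoter is the first of those printed above. In WT-SFD kidneys it was at 17.6, 18, 21.4 and 19.4 CPM and in WT-HFD kidneys at 14.9, 23.8, 23.9 and 12.9 CPM. In KO-SFD kidneys it was at 8.78, 7.22, 8.38 and 15.7 CPM and in KO-HFD kidneys at 23.9, 27.4, 32.6 and 43.1 CPM. All KO-SFD mice were below all WT-SFD mice, and all KO-HFD mice were above all KO-SFD mice. Ccl28 rose on HFD in KO (log2 change 1.67, SE 0.251, adjusted p = 0.00122), the member with the smallest adjusted p in any comparison, and kept this call in 23 of 23 alternatives. In WT the log2 change was -0.03 (SE 0.242, adjusted p = 0.999). The test of the difference, the interaction of diet and genotype, gave 1.69 (SE 0.348, unadjusted p = 0.000159, adjusted p = 1), so a difference between genotypes did not pass over all genes. On SFD Ccl28 was lower in KO than in WT (-0.94, SE 0.253, adjusted p = 0.432) and on HFD higher (0.76, SE 0.239, adjusted p = 1), neither of which passed. None of the 3 genes tested on either side, such as Hmgcs1 (0.13, SE 0.141 in KO), passed for diet. On SFD 4 of these 6 neighbours were also lower in KO at an unadjusted p under 0.05, beside 8.69% of all genes. They were Gm7120 (-1.42), 3110070M22Rik (-1.62), Gm9752 (-0.47) and Hmgcs1 (-0.34), and none of them passed (adjusted p from 0.472 to 0.544). On HFD, where Ccl28 was higher in KO, Gm7120 (-1.36) and 3110070M22Rik (-2.03) were still lower at that limit. Gm9752 (0.03) and Hmgcs1 (-0.19) were not. Slc12a3, the gene of the sodium chloride cotransporter of the distal tubule, was at 654, 760, 599 and 709 CPM in WT-SFD, 737, 722, 680 and 771 CPM in WT-HFD, 463, 443, 564 and 531 CPM in KO-SFD and 608, 750, 1058 and 850 CPM in KO-HFD. All KO-SFD kidneys were below all others for Slc12a3, which rose on HFD in KO (0.71, SE 0.144, adjusted p = 0.0124) and had a log2 change of -0.44 for genotype on SFD (SE 0.143, adjusted p = 0.444). Of the 10 tubule and podocyte markers tested, 7 were higher and 3 lower on HFD in KO (median 0.28), and 2 rose, Slc12a3 and the glucose transporter gene Slc5a2 (1.54, SE 0.208, adjusted p = 0.000594). On SFD 7 were lower and 3 higher in KO (median -0.21, none past the limit, 4 at an unadjusted p under 0.05). Umod went the other way from Slc12a3, at 4052 to 5140 CPM in WT-SFD, 3287 to 4943 CPM in WT-HFD, 5416 to 5688 CPM in KO-SFD and 2543 to 4310 CPM in KO-HFD. The log2 change of Umod for diet in KO was -0.59 (SE 0.182, adjusted p = 0.107, edgeR). The part of the tubule in the Ccl28 values was not tested. Its receptor Ccr10 was at 0.217 to 0.813 CPM and Ccr3 has no counts.

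Ccl9 encodes a myeloid-attracting ligand of CCR1 and was low in kidney. It was at 1.3, 0.754, 1.34 and 0.852 CPM in WT-SFD, 1.71, 3.27, 1.93 and 2.29 CPM in WT-HFD, 2.03, 1.51, 1.18 and 1.37 CPM in KO-SFD and 2.22, 1.95, 1.58 and 1.96 CPM in KO-HFD. The WT groups did not overlap and the KO groups did. Ccl9 rose averaged over genotypes (log2 change 0.71, SE 0.181, adjusted p = 0.0328). In WT it did not pass (1.07, SE 0.257, adjusted p = 0.0625).

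Ccl25, whose product draws T cells and thymocytes through CCR9, was at 5.8, 9.36, 5.58 and 6.46 CPM in WT-SFD, 3.98, 5.1, 5.06 and 5.59 CPM in WT-HFD, 7.18, 6.2, 6.8 and 6.45 CPM in KO-SFD and 4.61, 5.41, 4.3 and 4.68 CPM in KO-HFD. The diets overlapped in WT at 1 value and did not overlap in KO. Ccl25 fell averaged over genotypes (log2 change -0.46, SE 0.117, adjusted p = 0.0318), with similar values in WT (-0.44, SE 0.165) and KO (-0.48, SE 0.167). Leaving out 1 kidney ended the call of Ccl9 for 10 of 16 kidneys (adjusted p up to 0.0676) and that of Ccl25 for 8 of 16 (up to 0.0671), and 4 of these kidneys, KO-SFD-1319, KO-SFD-1451, KO-HFD-1437 and KO-HFD-1558, were shared. The others were WT-SFD-1446, WT-SFD-1695, WT-HFD-1613, WT-HFD-1642, KO-SFD-1318 and KO-HFD-1504 for Ccl9 and WT-HFD-1535, WT-HFD-1641, KO-SFD-1303 and KO-HFD-1520 for Ccl25. The call of Ccl9 was also lost with the leucocyte markers as a covariate (0.63, adjusted p = 0.0744). No member was above or below all mice of the other diet in every mouse, beside 0.998% of all genes that were higher in all 8 HFD than in all 8 SFD kidneys and 0.273% that were lower.

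**Figure D2:**
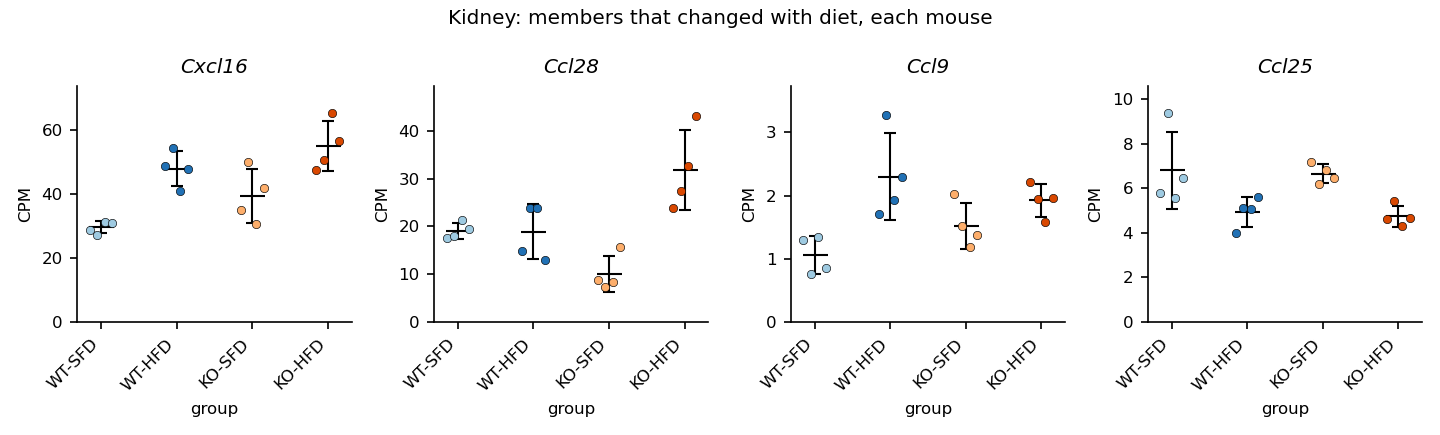
CPM of Cxcl16, Ccl28, Ccl9 and Ccl25 in each kidney by group, with the mean and SD of 4 mice. The mean of Cxcl16 is higher in the HFD groups of both genotypes, with overlap in KO, where the rise did not pass. Ccl28 lies between 7.22 and 15.7 CPM in KO-SFD and between 23.9 and 43.1 CPM in KO-HFD, and the mean of Ccl25 is lower on HFD.

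Within each genotype, 1 member passed for diet in kidney, Cxcl16 in WT, beside 0.964% of all genes, and Ccl28 in KO, beside 2.39%. DESeq2 called 2 in each, Cxcl16 and Ccl9 in WT, beside 1.50% of all genes, and Cxcl16 and Ccl28 in KO, beside 4.28%. At an unadjusted p under 0.05 there were 4 members in WT, beside 8.05% of all genes, and 5 in KO, beside 16.1%. The T cell-attracting ligand gene Ccl5 was at 0.867, 0.44, 0.754 and 0.493 CPM in WT-SFD and 2.08, 1.79, 0.682 and 0.86 CPM in WT-HFD (1.07, SE 0.389, adjusted p = 0.377), which overlapped. In KO-SFD it was at 1.59, 1.4, 0.818 and 1.75 CPM and in KO-HFD at 1.46, 1.86, 0.886 and 1.66 CPM, which overlapped as well.

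The comparison of genotypes in kidney gave no call. No member passed for genotype on SFD, beside 0.0133% of all genes, on HFD, beside 0%, averaged over diets, beside 0.0133%, or for the interaction, beside 0% (edgeR). At an unadjusted p under 0.05 there were 5 members on SFD, beside 8.69% of all genes, 1 on HFD, beside 1.75%, 2 averaged over diets, beside 5.93%, and 2 for the interaction, beside 3.35%. DESeq2 also called 0 members in each, beside 0.165% of all genes on SFD, 0.00421% on HFD, 0.0969% averaged over diets and 0% for the interaction. Its counts at an unadjusted p under 0.05 were 6 of 44 members on SFD, beside 6.19% of all genes, 1 on HFD, beside 1.29%, 2 averaged over diets, beside 4.37%, and 3 for the interaction, beside 2.55%. The smallest p values on SFD were those of Ccl28, of the eotaxin gene Ccl11 and of Cxcl16 (0.41, SE 0.141, adjusted p = 0.472). Ccl11 was at 0.108, 0.0628, 0.0685 and 0.224 CPM in WT-SFD and at 0.723, 0.701, 0.204 and 0.164 CPM in KO-SFD, and the groups overlapped (1.90, SE 0.656, adjusted p = 0.47).

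The other ligand and receptor sets in kidney showed no change that passed. Cxcl12, which holds CXCR4-bearing cells in place, was at 157, 111, 162 and 147 CPM in WT-SFD, 182, 160, 101 and 137 CPM in WT-HFD, 211, 198, 197 and 190 CPM in KO-SFD and 207, 140, 98.8 and 114 CPM in KO-HFD. All 4 KO-SFD kidneys were above all 8 WT kidneys, and 3 of the 4 KO-HFD kidneys were below all 4 KO-SFD kidneys. The log2 change for genotype on SFD was 0.46 (SE 0.203, adjusted p = 0.553), and the log2 change for diet in KO was -0.51 (SE 0.203, adjusted p = 0.227). Ackr3 was at 31.1 to 61.1 CPM over all 16 kidneys and Cxcr4 at 1.69 to 6.27 CPM, the highest in KO-HFD-1504. The lymphoid set of Ccl19 (1.68 to 8.39 CPM), Ccl21a (3.53 to 10.6 CPM), Ccl21b (5.16 to 18 CPM) and their receptor Ccr7 (0.102 to 1.51 CPM) overlapped between groups, except that Ccr7 was lower in KO-SFD (0.102 to 0.289 CPM) than in every WT kidney (0.325 to 1.33 CPM), with a log2 change on SFD of -1.23 (SE 0.661, adjusted p = 0.611). Ccl19 and Ccr7 were highest in KO-HFD-1504, whose summed B cell markers stood at 797 CPM, 717 CPM of it from Ighm. This kidney also had the highest sums of T cell markers, 37.2 CPM against 7.15 to 22.1 CPM in the others. Markers of lymph node stroma and follicles summed to 26.8 CPM in it, against 3.36 to 15.4 CPM in the others. The B cell attractant Cxcl13 was at 0.0568 to 1.06 CPM. Cx3cl1 and Cxcl14 varied little, at 69.6 to 91 CPM and 30.8 to 52.6 CPM, with log2 changes for diet of -0.03 (SE 0.069) and 0.04 (SE 0.111). The monocyte attractant Ccl2 was at 0.189 to 1.75 CPM (diet, 0.86, SE 0.396, adjusted p = 0.264).

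Of 71 listed genes that act with chemokines (G proteins, receptor kinases and arrestins, proteases, inducers and adhesion molecules), 52 were tested in kidney, and 3 rose and none fell with diet averaged over genotypes, beside 4.62% of all genes called in either direction. They were Rarres2, the gene of the chemoattractant chemerin (log2 change 1.31, SE 0.203, adjusted p = 0.000771), the endothelial adhesion gene Vcam1 (0.58, SE 0.117, adjusted p = 0.00738) and the leucocyte integrin gene Itgb2 (0.63, SE 0.152, adjusted p = 0.0242). Of these 52, 39 were higher and 13 lower (median 0.10 against -0.01 for all genes). All 8 adhesion genes tested were higher on HFD (median 0.49). Of the leucocyte markers, 7 of 8 were higher on HFD (median 0.45, none past the limit). Of 11 macrophage markers tested, 8 were higher and 3 lower (median 0.26), and 1 passed, Mpeg1 (0.67, SE 0.128, adjusted p = 0.00494). The summed macrophage markers, led by Csf1r, were 205, 262, 316 and 198 CPM in WT-SFD, 307, 351, 258 and 296 CPM in WT-HFD, 276, 316, 247 and 356 CPM in KO-SFD and 262, 376, 236 and 257 CPM in KO-HFD, and the diets overlapped in both genotypes. The summed leucocyte markers were 97.8, 116, 164 and 102 CPM in WT-SFD, 147, 155, 111 and 135 CPM in WT-HFD, 124, 135, 85 and 146 CPM in KO-SFD and 144, 262, 98.1 and 116 CPM in KO-HFD, led by Lcp1. With the leucocyte markers as a covariate Cxcl16, Ccl28 and Ccl25 kept their calls averaged over genotypes, beside 5.03% of all genes called in that fit, and Ccl9 lost its call.

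In aorta, the comparison of genotypes asked whether loss of EGFR in smooth muscle altered chemokine expression. By edgeR no member passed an adjusted p of 0.05. The inflammatory CC ligand genes Ccl7, Ccl2, Ccl12, Ccl5 and Ccl9 had the smallest p values and were higher in KO, and the ligands were not tested as a set. Averaged over diets 0 of 26 members passed, beside 0.196% of all genes (edgeR), and DESeq2 called 1, Ccl7, beside 0.245%. At an unadjusted p under 0.05 there were 7 members, all higher in KO, beside 7.17% of all genes (edgeR). DESeq2, which was run on every gene with a count, gave 10 of 42 members, beside 4.28%. The 7 by edgeR were Ccl7, Ccl5, Ccl12, Ccl2, Ccl9, Cxcl9 and Cxcl12, with adjusted p from 0.241 to 0.665. Of the 8 inflammatory CC ligands tested, 7 were higher and 1 lower (median log2 change 0.84), against a median of 0.23 for the 26 members and -0.01 for all genes. The 10 members tested on chromosome 11, the chromosome of the main Ccl cluster and of Egfr, had the same median of 0.84, and the 16 elsewhere 0.05. These 10 included the inflammatory CC ligands Ccl2, Ccl5, Ccl6, Ccl7, Ccl9, Ccl11 and Ccl12, so both medians rest largely on the same genes. They lay from 53.5 Mb (Cxcl16) to 84.3 Mb (Ccr10) from the end of Egfr. Ccl7 and Ccl5 were at most 0.409 and 0.615 CPM in WT aortae and had enough counts for testing through KO aortae. The filter may thus tilt the tally of ligands towards KO. Leucocyte markers, given below, were also higher in KO averaged over diets, with the highest sums in KO-SFD-1319 (209 CPM) and KO-HFD-1503 (178 CPM). Slc4a1, the red cell anion exchanger gene and the only one of 6 listed blood markers with counts, was at 1.23, 0.615 and 9.1 CPM in WT-SFD, 9.38, 4.72, 5.84 and 9.72 CPM in WT-HFD, 1.61, 14.9 and 10.8 CPM in KO-SFD and 12.8, 20.8, 29.4 and 32.4 CPM in KO-HFD. It was higher in 6 of 7 KO aortae than in every WT aorta (log2 change averaged over diets 1.54, SE 0.486, adjusted p = 0.495), and the part of blood in the ligand values was not tested.

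Ccl2, Ccl7 and Ccl12 encode ligands of CCR2, the receptor that brings monocytes from blood into tissue, and lie close together on chromosome 11 between positions 82035571 and 82103400. Ccl2 was at 0.955, 0.923 and 0.144 CPM in WT-SFD, 1.02, 1.21, 0.938 and 0.256 CPM in WT-HFD, 1.61, 1.25 and 1.54 CPM in KO-SFD and 1.83, 1.97, 1.76 and 1.37 CPM in KO-HFD. All 7 KO aortae were above all 7 WT aortae, the only member of which this was true, beside 0.182% of all genes tested, and no member was lower in all 7 KO aortae, beside 0.0879%. The log2 change averaged over diets was 1.02 (SE 0.321, adjusted p = 0.495), and it rested on 156 reads in all.

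Ccl7 was at 0.409, 0.308 and 0.144 CPM in WT-SFD and had no count in any of the 4 WT-HFD aortae. In KO-SFD it was at 0.268, 1.11 and 0.634 CPM and in KO-HFD at 1.1, 1.88, 0.56 and 0.137 CPM. A limit of 3 counts over the WT-HFD group is 0.0807 CPM. The observed level of KO-HFD, with 37 counts, was 11.9-fold above that limit, and that of WT-SFD, with 7 counts, 3.61-fold. These ratios allow for counting error in WT-HFD only, not for that in the other group or for spread between mice. KO-HFD-1503 alone held 20 of the 37 counts, and without it the ratio for KO-HFD was 7.52-fold, a repeat added after its values were seen. The adjusted p on HFD was 0.19 by edgeR and 0.0162 by DESeq2, and that of diet in WT was 0.21. With 1 library left out, Ccl7 was tested in 12 of 14 fits and had too few counts for testing in the others. Ccl12 was at 0.682, 0.205 and 0.289 CPM in WT-SFD, 1.12, 0.301, 0.313 and 0.767 CPM in WT-HFD, 0.67, 0.975 and 1.63 CPM in KO-SFD and 0.978, 2.54, 1.2 and 0.821 CPM in KO-HFD, with overlap (1.37, SE 0.432, adjusted p = 0.495).

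Ccl5 was at 0.137, 0.615 and 0 CPM in WT-SFD, 0.408, 0, 0.313 and 0 CPM in WT-HFD, 1.47, 0.975 and 0.906 CPM in KO-SFD and 0.244, 5.26, 1.12 and 0.41 CPM in KO-HFD. The SFD groups did not overlap and the HFD groups did, with KO-HFD-1503 far above the rest (on HFD 3.22, SE 0.969, adjusted p = 0.619). This log2 change ranged from 2.80 without WT-HFD-1443 to 3.93 without WT-HFD-1442, and without KO-HFD-1503 the counts were too few for testing. Ccl9 was at 3.41, 4.92 and 4.19 CPM in WT-SFD, 7.14, 3.42, 2.81 and 3.58 CPM in WT-HFD, 8.04, 7.1 and 6.07 CPM in KO-SFD and 5.62, 11.1, 4.16 and 4.24 CPM in KO-HFD (0.66, SE 0.263, adjusted p = 0.665). Cxcl12, an abundant member, was at 107, 84.8 and 106 CPM in WT-SFD, 116, 107, 107 and 113 CPM in WT-HFD, 104, 136 and 105 CPM in KO-SFD and 134, 166, 118 and 118 CPM in KO-HFD. The 4 KO-HFD aortae were above all WT aortae, and the log2 change averaged over diets was 0.24 (SE 0.096, adjusted p = 0.664).

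**Figure D3:**
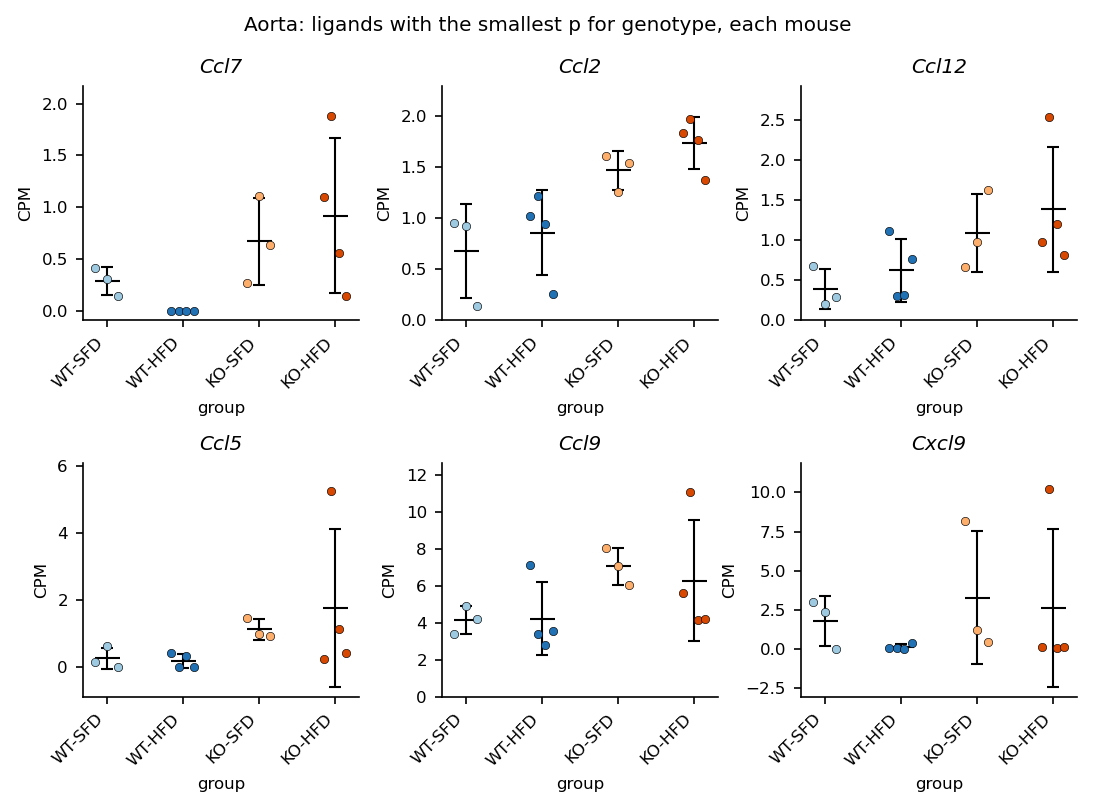
CPM of Ccl7, Ccl2, Ccl12, Ccl5, Ccl9 and Cxcl9 in each aorta by group, with the mean and SD of 3 or 4 mice (SD bars may reach below 0). The 7 KO aortae lie above the 7 WT aortae for Ccl2, Ccl7 is at 0 in the 4 WT-HFD aortae, and the highest HFD point in all 6 panels is KO-HFD-1503.

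The interferon-induced ligand genes Cxcl9 and Cxcl10, which draw CXCR3-bearing T cells, rested on few mice in aorta. Cxcl9 was at 3, 2.36 and 0 CPM in WT-SFD, 0.102, 0.101, 0 and 0.384 CPM in WT-HFD, 8.17, 1.25 and 0.453 CPM in KO-SFD and 0.122, 10.2, 0.08 and 0.137 CPM in KO-HFD. The highest values were those of KO-HFD-1503 and KO-SFD-1319, the aortae with the highest leucocyte marker sums. Next came WT-SFD-1309 and WT-SFD-1310, with leucocyte sums of only 64.8 and 63.8 CPM and the highest adipocyte sums, 17768 and 12547 CPM. The adipocyte sum was also high in KO-SFD-1319 (9916 CPM) but not in KO-HFD-1503 (961 CPM). The part of either cell type in these values was not tested. The log2 change of Cxcl9 on HFD was 4.23 (SE 1.595, adjusted p = 0.807) and turned to -0.30 without KO-HFD-1503. Cxcl10 was at 3.82, 1.23 and 0.144 CPM in WT-SFD, 0 in WT-HFD except for 0.73 CPM in WT-HFD-1447, 2.41, 1.25 and 0 CPM in KO-SFD and 0, 3.01, 0.24 and 0.41 CPM in KO-HFD. Cxcl10 has a match to GAAANNGAAA in the promoter printed above, and Cxcl9 has none in that window.

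Genotype within a diet gave 0 members in aorta on SFD, beside 0.0811% of all genes, and 0 on HFD, beside 0.0811% (edgeR). At an unadjusted p under 0.05 there were 4 members on SFD, beside 6.54% of all genes, and 6 on HFD, all higher in KO, beside 5.35%. DESeq2 called 0 on SFD, beside 0.205% of all genes, and 1 on HFD, Ccl7, beside 0.165%. Its counts at an unadjusted p under 0.05 were 4 of 42 members on SFD, beside 3.98%, and 8 on HFD, beside 3.18%. On SFD the smallest p values were those of the lymphoid homing receptor gene Ccr7, of Ccr10 and of the eosinophil attractant gene Ccl24. Ccr7 was at 0.137, 0 and 0.289 CPM in WT-SFD and 0.402, 0.418 and 1.72 CPM in KO-SFD, which did not overlap (2.77, SE 1.175, adjusted p = 0.733). This log2 change was 1.64 without KO-SFD-1507, 2.09 without WT-SFD-1310 and 3.72 without WT-SFD-1445. Ccr10 was at 4.37, 3.28 and 2.74 CPM in WT-SFD and 2.28, 0.697 and 2.27 CPM in KO-SFD, also without overlap (-0.94, SE 0.397, adjusted p = 0.736). Leaving out 1 library gave log2 changes of Ccr10 from -1.16 to -0.58. On HFD neither set stayed apart, as Ccr7 was at 1.43, 0.201, 0.625 and 0.128 CPM in WT and 0, 0.47, 0.24 and 1.23 CPM in KO, and Ccr10 at 2.24 to 2.69 CPM in WT and 1.52 to 3.91 CPM in KO.

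Leucocyte markers were mostly higher in KO aortae on SFD. Averaged over diets 8 of 8 were higher in KO (median log2 change 0.68, none past the limit, 3 at an unadjusted p under 0.05), and the median was 1.19 on SFD (8 higher) and 0.16 on HFD (5 higher, 3 lower). The sums were 64.8, 63.8 and 89.1 CPM in WT-SFD, 137, 64.5, 93 and 71.5 CPM in WT-HFD, 209, 105 and 123 CPM in KO-SFD and 60.3, 178, 77.6 and 78.9 CPM in KO-HFD, led by Laptm5. Of 11 macrophage markers, 9 were higher and 2 lower (median 0.42), with sums of 171 to 286 CPM in WT and 172 to 399 CPM in KO, led by Lyz2. With the leucocyte markers as a covariate, no aortic member passed for genotype averaged over diets by edgeR, beside 0.122% of all genes in that fit (5 at an unadjusted p under 0.05, beside 6.02%). The part of macrophages in the ligand values was not tested.

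Diet in aorta left the members without a call. The counts were 0 of 26 in WT, beside 0% of all genes, 0 in KO, beside 0%, 0 averaged over genotypes, beside 3.95%, and 0 for the interaction, beside 0% (edgeR), and DESeq2 called 0 in each, beside 4.36% in WT, 0.0112% in KO, 5.80% averaged over genotypes and 0% for the interaction. At an unadjusted p under 0.05 there were 5 in WT, beside 17.0% of all genes, 1 in KO, beside 7.85%, 1 averaged over genotypes, beside 18.8%, and 3 for the interaction, beside 4.37%. By DESeq2 these were 5 of 42 members in WT, beside 10.1%, 2 in KO, beside 4.79%, 3 averaged over genotypes, beside 11.3%, and 4 for the interaction, beside 2.85%. The median log2 change for diet averaged over genotypes was -0.05 for the members and 0 for all genes. High adipocyte sums were found only in SFD aortae, and the adipocyte gene Adipoq was among the genes called averaged over genotypes (-3.55, SE 0.679, adjusted p = 0.0168, edgeR). The part of adipose tissue in the shares of all genes called for diet was not tested.

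The smallest p values for diet in WT were those of Ccl24, of the neutrophil attractant gene Cxcl1 and of Ccl7. Ccl24 was at 0.819, 1.23 and 1.3 CPM in WT-SFD and 2.96, 1.21, 3.34 and 2.43 CPM in WT-HFD, with 1 HFD mouse within the SFD range (1.13, SE 0.378, adjusted p = 0.131). In KO-SFD it was at 2.68, 1.95 and 1.9 CPM and in KO-HFD at 1.96, 1.31, 1.44 and 1.78 CPM. Cxcl1 was at 0.137, 0.513 and 0.578 CPM in WT-SFD and 1.12, 0.603, 2.09 and 2.17 CPM in WT-HFD, without overlap (1.79, SE 0.656, adjusted p = 0.171), and at 0.67, 0.418 and 1.72 CPM in KO-SFD and 1.34, 1.41, 0.72 and 0.547 CPM in KO-HFD, with overlap. In KO the smallest p was that of Cxcr4, at 5.76, 0.557 and 0.997 CPM on SFD and 0.611, 1.41, 0.48 and 0.137 CPM on HFD. Its high value was that of KO-SFD-1319, in which B cell markers summed to 1316 CPM, 1279 CPM of it from the immunoglobulin gene Ighm. In WT-SFD-1309 Cxcr4 was at 4.91 CPM with a B cell marker sum of 19.7 CPM. The log2 change of Cxcr4 for diet in KO, -1.75 (adjusted p = 0.621), was -0.23 without KO-SFD-1319 and -2.44 without KO-HFD-1503.

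The other abundant members of aorta showed no change that passed. Ackr3 was at 27.4 to 69.9 CPM, Ccl27a at 14.5 to 26.8 CPM and Ccl19 at 2.55 to 13.8 CPM, with adjusted p of 0.703 or more in every comparison for each. Ccl21a was at 33.4, 25.2 and 11.3 CPM in WT-SFD, 7.75, 15.7, 21.2 and 14.3 CPM in WT-HFD, 26, 11.4 and 7.8 CPM in KO-SFD and 13.4, 21, 7.04 and 6.84 CPM in KO-HFD. Its 3 highest values were in WT-SFD-1309, WT-SFD-1310 and KO-SFD-1319, which had high adipocyte sums and the 3 highest sums of lymphatic endothelial markers, 157, 90 and 87.5 CPM against 26.2 to 72.3 CPM in the other 11 aortae (6 markers, all with a count, led by Lyve1). Ccl21b was at 2.86 to 14.7 CPM over all aortae, the highest in KO-SFD-1319. Ackr1, the endothelial scavenger of inflammatory chemokines, had its 4 highest values, 3.41, 1.13, 1.21 and 1.67 CPM, in WT-SFD-1309, WT-SFD-1310, KO-SFD-1319 and KO-SFD-1452, the 4 aortae with high adipocyte sums, and was at 0 to 0.939 CPM in the other 10. The part of adipose tissue or lymphatic vessels in these values was not tested. Cxcl13 had too few counts for testing in aorta and was highest in KO-SFD-1319, at 4.02 CPM.

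**Figure D4:**
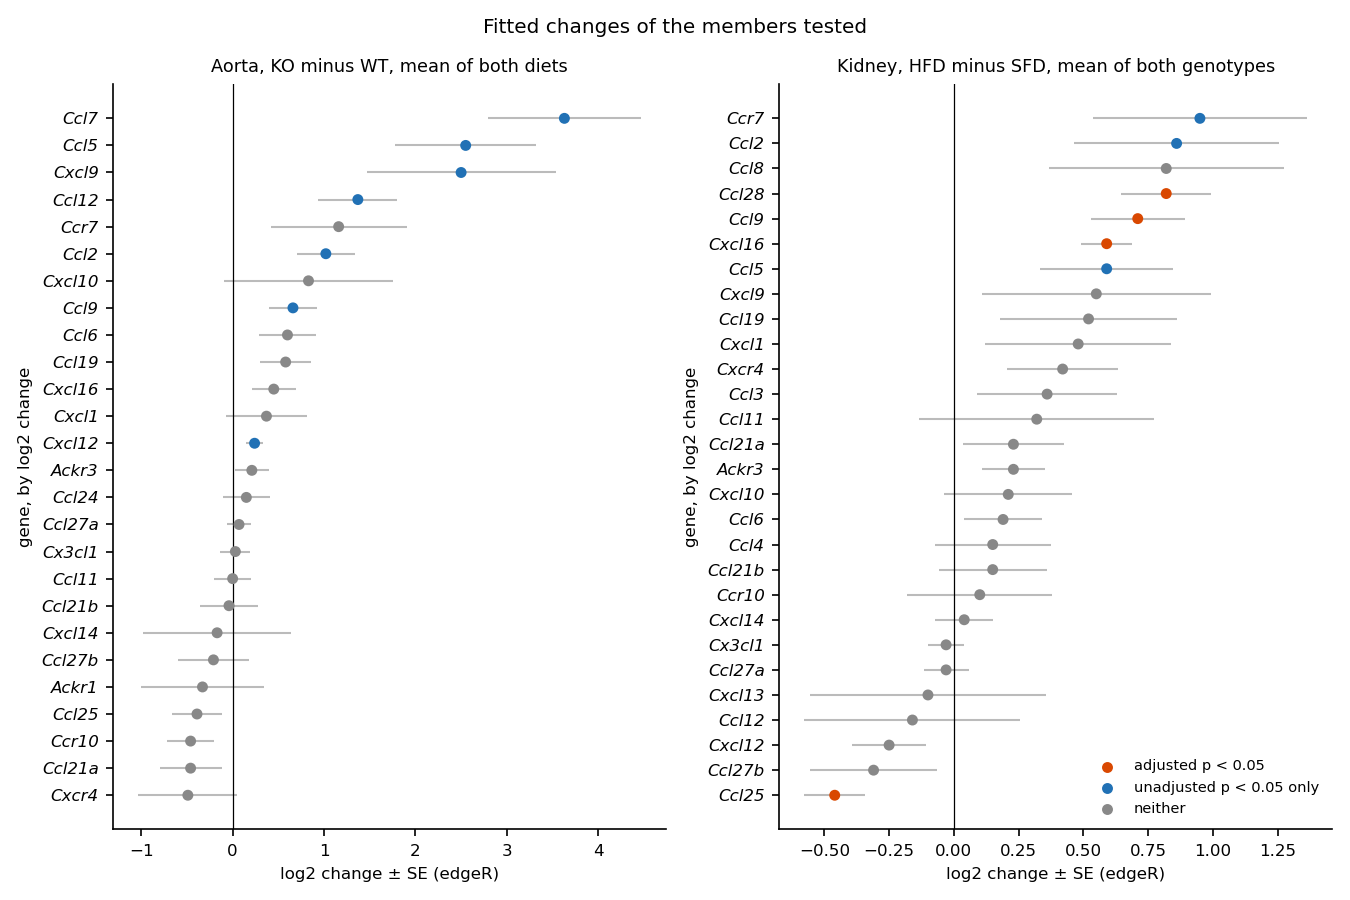
Log2 change with SE (edgeR) of each member tested, for KO minus WT in aorta averaged over diets (left, 26 members) and for HFD minus SFD in kidney averaged over genotypes (right, 28 members). Orange marks an adjusted p under 0.05, blue an unadjusted p under 0.05 only. Of the aortic members 17 are higher in KO and none passes the adjusted limit, and of the renal members 21 are higher on HFD, with Cxcl16, Ccl28 and Ccl9 passing upwards and Ccl25 downwards.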

How the data were processed

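Gene counts were deposited by the authors for 14 aortae and 16 kidneys, raw and not normalised. The submitters' processing notes name cutadapt, TopHat and featureCounts with GRCm38/mm10 for both tissues. The study's methods give cutadapt for the aortic reads and leave trimming of the kidney reads to the external sequencing provider. Strand and multi-mapping settings are not given in the sources used here. Every sample column was used. Rows on chromosomes 9 and X held no counts.

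Here each tissue was fitted apart in R 4.3.3 with edgeR 4.0.16 (TMM factors, filterByExpr, quasi-likelihood F test, 4 group coefficients), with Benjamini-Hochberg adjustment over all genes tested and a limit of 0.05. The common dispersion was 0.0531 in aorta and 0.0372 in kidney. DESeq2 1.42.0 (all genes with a count, those without an adjusted p left out of its counts of calls), RLE factors, library totals, no filter, pairwise fits, protein-coding genes only, marker covariates and leaving out each library were alternatives. The labels name no batch within a tissue. Depth was 6403699 to 13052870 counts per aorta and 16354880 to 28331314 per kidney. On simulated counts with known changes for diet in WT, 2-fold changes were recovered in 47.5% of cases in aorta and 75.8% in kidney, and 4-fold changes in 83.3% and 94%, over 14468 and 14900 genes. No pair of libraries of the same group (18 pairs in aorta, 24 in kidney) agreed within sampling noise (chi-square per degree of freedom 8.83 to 125 in aorta and 11.4 to 73.1 in kidney). Figures were drawn with matplotlib 3.10.9.

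The gene family, whose members follow from a rule on names, and the lists were chosen with earlier results of these data known. Values per mouse, or their range over mice, are given for members that passed in any comparison and for the 6 highest per length. They are also given for up to 3 members of smallest unadjusted p under 0.05 per pairwise comparison. The same holds for Ccl2 and Ccl5, for the sets of Cxcl12, Ccl19 and Ccl21a, and Cxcl13, and for Ackr1 in aorta. Ccl12, Ccl9 in aorta, Cxcl10, Zmynd15 and Hmgcs1 were added after their values were seen. Protein sequences were not used here.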

Additional observations from a re-analysis of the deposited data

Results flagged for a closer look

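In groups of 4 mice, a value was marked when its gap to the nearest other mouse was over Dixon's 95% limit as a share of the group's range, which chance gives in about 1 in 20 groups. Of 28 groups of members examined in aorta 2 passed, and of 64 in kidney 4. In aorta KO-HFD-1503 stood above its group for Cxcl9 (10.2 CPM) and Cxcl13 (1.22 CPM), and in kidney KO-HFD-1504 did for Ccl19 (8.39 CPM) and Cxcr4 (6.27 CPM). These libraries also had the highest leucocyte marker sums of their groups, 178 and 262 CPM. Ccl2 was at 1.75 CPM in kidney KO-SFD-1451 and Cxcr4 at 5.05 CPM in kidney WT-HFD-1613, each above the other 3 mice of its group.

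Cxcl11, an interferon-induced ligand gene annotated as a polymorphic pseudogene and so outside the 59 genes, had 73 counts over the aortae and 227 over the kidneys.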

How the results depend on the processing

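Over all alternatives, 490 of 520 values of named members kept their direction and their side of the limit, and 1 reversed, Cxcl9 for genotype on HFD in aorta, which went to a log2 change of -0.30 without KO-HFD-1503 and ranged up to 5.09 without other libraries. Counts of members called stayed within 1.5 times the reported number (3 instead of 4 counted as kept) in 94 of 99 alternatives that left no library out and in 197 of 210 that left out 1 library. With DESeq2, Ccl7 was called in aorta for genotype on HFD (1 member instead of 0) and averaged over diets (1 instead of 0), and in kidney 2 members were called for diet in WT and 2 in KO. With library totals 2 were called for diet in KO kidneys, Cxcl16 and Ccl28. Leaving out 1 library gave 0 to 1 calls for diet in WT aortae (Ccl11 without WT-SFD-1445) and 0 to 1 averaged over genotypes (Cxcl9 without KO-HFD-1503). In kidney it gave 0 to 1 for diet in WT, 1 to 2 in KO (Cxcl16 added without KO-SFD-1318, Cxcl12 without KO-HFD-1437) and 2 to 4 averaged over genotypes, where Cxcl16 and Ccl28 stayed. The cause was not tested.

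Ccl28 on HFD in KO kidneys had log2 changes of 1.48 to 1.96 and adjusted p of 1.67e-08 to 0.00996 over 23 alternatives. Cxcl16 was called in 22 of 22 alternatives averaged over genotypes, 18 of 23 in WT and 3 of 23 in KO, and of 22 alternatives averaged over genotypes Ccl25 was called in 14 and Ccl9 in 11. Scaling by library totals in aorta moved the median of all genes by 0.111 for diet in WT, -0.109 for diet in KO, 0.291 for genotype on SFD, -0.22 for the interaction and 0.181 for genotype averaged over diets, and reversed no named member.

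No paired analysis was possible because replicate numbers only follow the order of the samples. With 3 or 4 mice a group, 47.5% of simulated 2-fold changes for diet in WT were recovered in aorta. Only 156 reads of Ccl2, 61 of Ccl7 and 117 of Ccl5 were found over all aortae, and recovery at such low counts was not tested.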
